A study of Mus musculus with 8 samples.

Results

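Endothelial cell genes were followed through the spermatogonial libraries of a mouse Polycomb study. The set holds Cdh5, Pecam1, Esam, Emcn, Ptprb, Kdr, Flt1, Tek, Tie1 and Eng, genes widely used to recognise the cells that line blood vessels. They were found by gene symbol, with their deposited counts summed per symbol, and all 10 were present among the 23343 symbols of the deposited tables. RNA was sequenced from spermatogonia of C57BL/6 mouse testes at postnatal day 7, sorted as Thy1+ or as cKit+ cells. Each population came with the genotype PRC1ctrl (here control) or PRC1dKO (here dKO), which gives 4 groups of 2 libraries, a control and a dKO group in Thy1 and the same in cKit. PRC1 is Polycomb repressive complex 1, a chromatin complex that marks histone H2A with ubiquitin and helps keep developmental genes silent. The comparisons ask how loss of PRC1 changes the RNA of each population and how the populations differ.

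The labels name neither the alleles, the deleted genes nor the driver of any deletion, and they do not say whether controls carry part of the same alleles or whether the 2 libraries of a group come from separate animals. If they do not, p-values measure only the spread between these libraries. Ring1 and Rnf2, the catalytic subunits of PRC1, ran from 2.59 to 12.0 and from 103 to 146 CPM (counts scaled to the library size with TMM factors) over the 8 libraries, and neither had a lower mean in dKO. A deletion of part of a gene can leave its total count as it was, so these values do not check the labels. Libraries held 6763908 to 10976869 counts, of which the ribosomal RNA precursor Rn45s took 8.42% to 13.6%. Replicate libraries differed by more than counting error (chi-square per degree of freedom 4.27 to 12.7). The processing identifiers in the labels form separate runs for the Thy1 and the cKit libraries, with cKit control replicate 1 apart from the other cKit libraries. What they stand for is not given, so a difference between populations cannot be told apart from them. The comparison of cKit dKO with control uses the control library that stands apart, so it is not free of them either.

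Blood vessel endothelium is held together by adherens junctions, in which VE-cadherin binds neighbouring cells, and it is governed by receptor tyrosine kinases for vascular endothelial growth factor (VEGF) and for the angiopoietins. Endoglin, a co-receptor for TGF-beta family ligands, tunes the same cells. In the testis, vessels run in the interstitium between the seminiferous tubules, beside Leydig cells, macrophages and pericytes, and spermatogonia lie inside the tubules. Many endothelial promoters are bound by ETS family factors such as ERG and FLI1, whose core site is GGAA.

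Start-site sequence was at hand in the RefSeq promoter table (GRCm38.p6, the assembly of mm10) for 6 of the 10 genes, Eng, Emcn, Tek, Tie1, Kdr and Flt1. The 250 bases before the start are shown for Tie1 and Kdr, which had the 2 largest increases past the test in cKit dKO, and for Tek, which did not pass it there. Each runs 5′ to 3′ in the direction of the gene, with GGAA or its reverse complement TTCC in capitals.
Tie1 (chr4:118489850-118490099, minus strand): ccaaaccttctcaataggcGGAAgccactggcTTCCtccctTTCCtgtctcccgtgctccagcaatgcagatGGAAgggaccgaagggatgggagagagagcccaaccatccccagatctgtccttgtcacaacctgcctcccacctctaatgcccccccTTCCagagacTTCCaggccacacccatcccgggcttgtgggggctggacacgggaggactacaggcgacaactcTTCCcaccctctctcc
Kdr (chr5:75978456-75978705, minus strand): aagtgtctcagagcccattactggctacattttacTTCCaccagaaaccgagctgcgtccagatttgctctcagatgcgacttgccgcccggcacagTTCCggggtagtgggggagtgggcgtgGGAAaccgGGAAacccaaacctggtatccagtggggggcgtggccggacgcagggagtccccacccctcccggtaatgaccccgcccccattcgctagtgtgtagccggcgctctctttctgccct
Tek (chr4:94739039-94739288, plus strand): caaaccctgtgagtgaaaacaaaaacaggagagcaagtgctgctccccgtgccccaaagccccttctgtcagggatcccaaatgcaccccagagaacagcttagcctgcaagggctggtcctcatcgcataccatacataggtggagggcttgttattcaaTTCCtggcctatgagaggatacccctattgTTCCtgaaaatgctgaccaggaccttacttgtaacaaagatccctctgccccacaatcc
The stretches upstream of Tie1, Kdr and Tek hold 7, 4 and 2 such cores. The RefSeq start equals the deposited gene start for Tie1, and lies 27 bases away for Kdr and 11 for Tek. In the full window of 300 bases (250 before and 50 after the start) GGAA was counted on both strands 9 times for Tie1, 6 for Emcn, 5 for Kdr, 4 each for Eng and Flt1, and 2 for Tek. The core is so short that 96.0% of all 32851 promoter windows hold it at least once. The longer form AGGAAG, which contains GGAA, was present 2 times each in Eng, Emcn, Tie1 and Flt1 and in neither Kdr nor Tek, against 35.4% of all windows. None of the 6 windows held the forkhead letters TGTTTAC (3.65% of all windows). Tek held GATAAG once (7.44% of all windows), and Tek and Eng each held ACAAAG once (18.7%). Base composition differed widely within the set, from 41.0% GC with 2 CpG dinucleotides in Emcn to 70.7% GC with 29 in Flt1, around medians of 52.7% and 7 over all windows.

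Measured per transcript length, 1 gene of the set stood far above the others. The deposited RPKM of Cdh5, which encodes VE-cadherin, was 20.1 and 18.1 in Thy1 control, 26.8 and 26.9 in Thy1 dKO, 15.2 and 13.8 in cKit control, and 22.4 and 23.4 in cKit dKO. In each library the next member was Eng, at 1.61 to 5.10 RPKM, and Cdh5 exceeded it by 5.25-fold to 9.81-fold. Cdh5 ranked between 425 and 1479 of 23343 symbols by RPKM, and no other member ranked better than 3895. The remaining 8 genes lay between 0.138 RPKM (Tie1 in cKit control) and 1.72 RPKM (Ptprb in cKit dKO). In the order of the medians (Pecam1, Ptprb, Esam, Tek, Emcn, Kdr, Flt1, Tie1) the ranges of neighbours over the 8 libraries overlapped. Of the reads counted on the 10 genes, 64.2% to 71.1% belonged to Cdh5 alone.

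**Figure D1:**
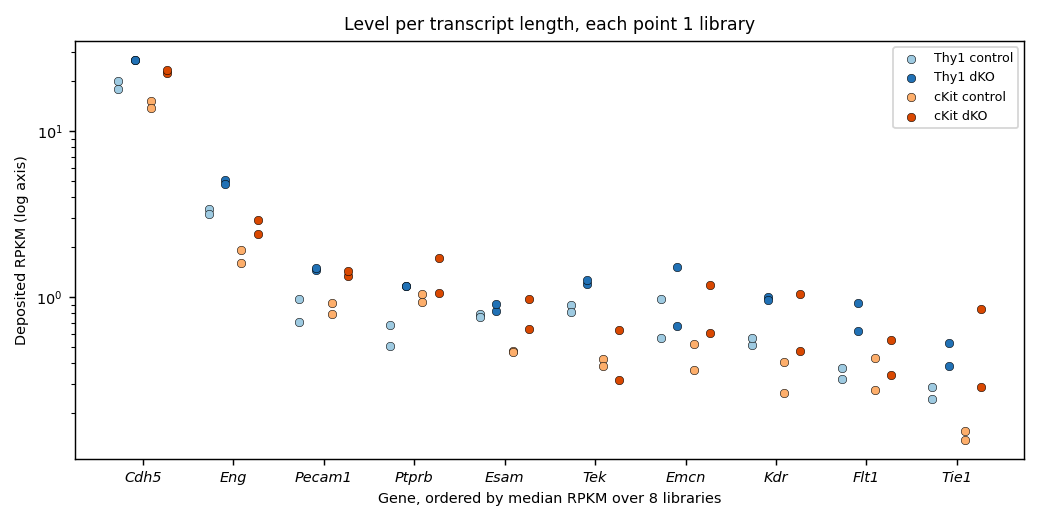
Deposited RPKM (log axis) of the 10 endothelial genes in each of the 8 libraries, ordered by their median; each point is 1 library, coloured by group. Cdh5 sits between 13.8 and 26.9 RPKM, above Eng at 1.61 to 5.10, and the other 8 genes lie below 2 RPKM.

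Other endothelial genes ranged from near 0 to high counts. Cldn5, the claudin of endothelial tight junctions, lay between 1.56 and 4.08 CPM, and Icam2, Plvap, Egfl7 and Nos3 between 0.110 and 5.33 CPM in every library. Sox17, Sele, Selp and Fabp4 stayed at or below 2.08 CPM and were too low to be tested. Others were counted far more, with Thbd (thrombomodulin) at 247 to 657 CPM, Sparcl1 at 82.3 to 324, Cd34 at 33.7 to 211 and Cd93 at 63.6 to 122, none of them restricted to endothelium. The genes of this paragraph other than members were picked for naming after their values were seen. No gene of the endothelial lists was at 0 in all 8 libraries. The counts behind the low members are small, from 13 to 77 for Tie1, 16 to 57 for Emcn and 21 to 48 for Esam, against 1329 to 3350 for Cdh5, and set how large a change could be detected.

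In Thy1+ cells the endothelial genes lay higher in dKO than in control, and for 2 of them the difference passed the test. Cdh5 rose 1.43-fold and Ptprb rose 2.02-fold by the quasi-likelihood test of edgeR, with Benjamini-Hochberg adjusted p-values over 14907 genes. Of all genes tested, 0.362% were called higher. Both dKO libraries lay above both control libraries for 9 of the 10 genes, Emcn being the exception, against 28.5% of all genes tested. The median log2 fold change of the 10 genes was 0.70, beside 0.03 over all genes.

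In cKit+ cells more of the genes passed the test in the fit of all 8 libraries. Cdh5, Pecam1, Ptprb, Kdr, Tie1 and Eng rose in dKO, 6 of the 10 genes, and 13.2% of all genes tested were called higher. For Esam, Emcn, Flt1 and Tek the difference did not pass the test. Both dKO libraries lay above both control libraries for all 10 genes, against 30.8% of all genes, and the median log2 fold change was 1.02 beside 0.03 over all genes. These bulk libraries do not show which cells held this RNA, and more cells and more RNA per cell cannot be told apart. The summed CPM of 27 germ cell genes in cKit dKO was 0.319 of that in cKit control (ratio of group means). The part of this fall in the endothelial differences was not tested.

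**Figure D2:**
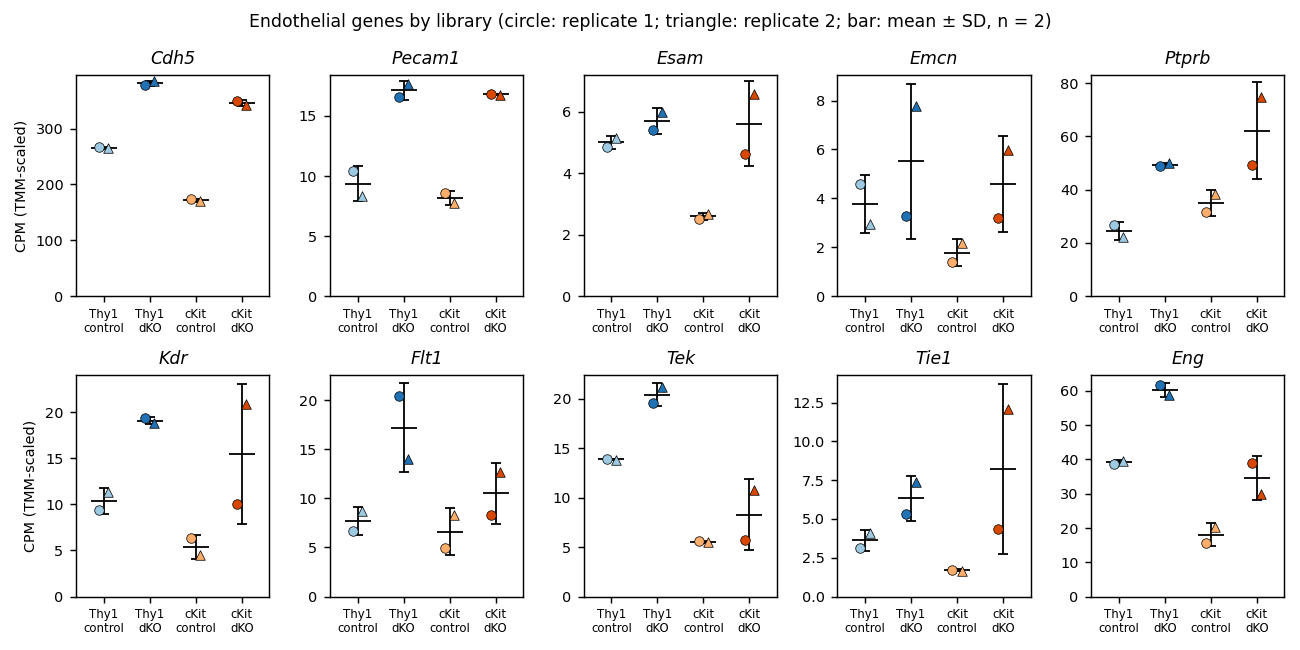
CPM of each endothelial gene in the 8 libraries (circles replicate 1, triangles replicate 2; the bar is the mean and the whiskers the SD of 2 libraries; each panel has its own axis from 0). In cKit, both dKO libraries lie above both controls in each panel, and the 2 cKit dKO libraries lie apart by more than 1.5-fold for Tie1, Kdr, Tek, Emcn, Flt1 and Ptprb.

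Among the junction and adhesion genes, Cdh5 (chr8:104101625-104144502 in mm10, plus strand) measured 267 and 265 CPM in Thy1 control and 377 and 384 in Thy1 dKO, then 173 and 170 in cKit control and 349 and 342 in cKit dKO. Replicates of Cdh5 differed by far less than the groups, and no groups overlapped. The change was 0.52 ± 0.10 (log2, SE, n = 2 libraries per group) in Thy1, with an edgeR adjusted p of 0.0309, and 1.01 ± 0.10 in cKit, with an edgeR adjusted p of 9e-06. Pecam1 (chr11:106654218-106715281, minus strand) encodes CD31, an adhesion molecule of endothelium, platelets and leukocytes. It measured 10.4 and 8.33 CPM in Thy1 control, 16.6 and 17.7 in Thy1 dKO, 8.57 and 7.78 in cKit control, and 16.8 and 16.8 in cKit dKO. Both populations thus reached about the same level in dKO. The difference passed the test in cKit (1.03 ± 0.26, edgeR adjusted p = 0.00721) and not in Thy1 (0.87 ± 0.25, edgeR adjusted p = 0.119).

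Ptprb (chr10:116301374-116389538, plus strand) encodes the phosphatase VE-PTP, which acts on VE-cadherin and on the receptor TIE2. It measured 26.8 and 22.1 CPM in Thy1 control, 48.8 and 49.96 in Thy1 dKO, 31.7 and 38.5 in cKit control, and 49.3 and 74.97 in cKit dKO. The dKO libraries lay above the controls of their population, with a wide gap between the 2 cKit dKO libraries. The changes were 1.02 ± 0.20 (edgeR adjusted p = 0.0338) in Thy1 and 0.83 ± 0.20 (edgeR adjusted p = 0.00558) in cKit. Esam (chr9:37528089-37538319, plus strand), an adhesion molecule of endothelial tight junctions, measured 4.87 and 5.17, then 5.41 and 5.99 CPM in Thy1 control and dKO, and 2.51 and 2.68, then 4.64 and 6.59 CPM in cKit control and dKO. The Thy1 libraries hardly differed, with a change of 0.18 ± 0.40, and the cKit difference of 1.11 ± 0.42 narrowly missed the threshold with an edgeR adjusted p of 0.0602. Emcn (chr3:137341078-137431069, plus strand), a sialomucin of venous and capillary endothelium, measured 4.60 and 2.93, then 3.27 and 7.76 CPM in Thy1, and 1.39 and 2.17, then 3.20 and 5.96 CPM in cKit. Its Thy1 groups overlapped and neither difference passed the test (0.54 ± 0.53 in Thy1 and 1.38 ± 0.58 in cKit).

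The VEGF receptors were low, and of the pair Kdr passed the test, in cKit. Kdr (chr5:75933270-75978428, minus strand) encodes VEGFR2, the main signalling receptor for VEGF-A. It measured 9.34 and 11.4 CPM in Thy1 control, 19.4 and 18.8 in Thy1 dKO, 6.32 and 4.47 in cKit control, and 10.1 and 20.9 in cKit dKO. Kdr rose in cKit, by 1.502 ± 0.34 (edgeR adjusted p = 0.00418), although cKit dKO replicate 2 lay far above replicate 1. In Thy1 its difference of 0.88 ± 0.32 did not pass (edgeR adjusted p = 0.222). Flt1 (chr5:147562196-147725988, minus strand) encodes VEGFR1, which binds VEGF-A tightly and signals weakly. It measured 6.71 and 8.69, then 20.4 and 14.02 CPM in Thy1 control and dKO, and 4.94 and 8.29, then 8.32 and 12.7 CPM in cKit control and dKO. The cKit groups almost touched, at 8.29 and 8.32 CPM. Neither difference passed the test, at 1.16 ± 0.34 in Thy1 (edgeR adjusted p = 0.121) and 0.69 ± 0.35 in cKit (edgeR adjusted p = 0.158).

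Of the 2 TIE receptors, 1 rose in cKit dKO. Tie1 (chr4:118471191-118489849, minus strand), an orphan receptor that modulates TIE2, measured 3.16 and 4.11, then 5.29 and 7.35 CPM in Thy1 control and dKO, and 1.73 and 1.66, then 4.32 and 12.1 CPM in cKit control and dKO. Its cKit change of 2.26 ± 0.52 (4.80-fold, edgeR adjusted p = 0.00453) was the largest estimate of the set, and it also had the largest gap between replicates, 2.79-fold in cKit dKO. Its Thy1 difference of 0.79 ± 0.49 did not pass the test. Tek (chr4:94739300-94874939, plus strand) encodes TIE2, the receptor for the angiopoietins. It measured 13.9 and 13.9, then 19.6 and 21.2 CPM in Thy1 control and dKO, and 5.63 and 5.49, then 5.76 and 10.8 CPM in cKit control and dKO. Replicate 1 of cKit dKO was thus close to the controls. Neither difference passed the test (0.55 ± 0.28 in Thy1 and 0.58 ± 0.32 in cKit, edgeR adjusted p = 0.406 and 0.19).

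Eng (chr2:32646595-32682669, plus strand) encodes endoglin, the co-receptor for TGF-beta and BMP ligands. It measured 38.8 and 39.7 CPM in Thy1 control, 61.7 and 58.8 in Thy1 dKO, 15.8 and 20.4 in cKit control, and 39.1 and 30.0 in cKit dKO. The 4 groups kept the order Thy1 dKO, Thy1 control, cKit dKO, cKit control, with Thy1 control and cKit dKO overlapping at 38.8 to 39.7 and 39.1 CPM. Eng rose in cKit by 0.94 ± 0.19 (edgeR adjusted p = 0.00183), and its Thy1 difference of 0.62 ± 0.18 had an edgeR adjusted p of 0.112. Fpgs on the opposite strand covers 61 of the 4048 exonic bases of Eng (1.51%), and was itself at 3.61 to 18.4 CPM. No other member shares exonic bases with another gene in GENCODE M21.

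**Figure D3:**
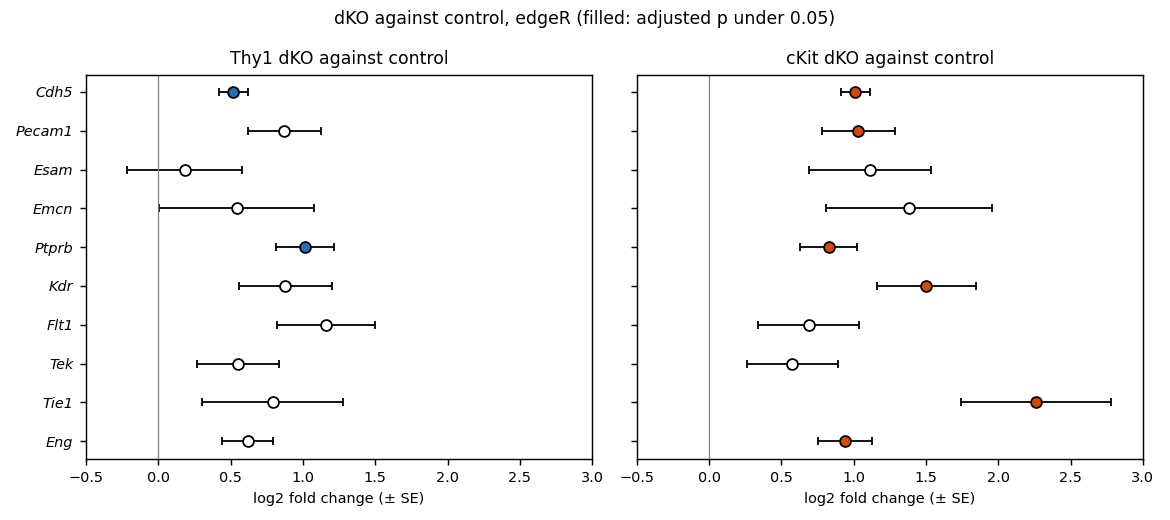
log2 fold change (± SE, edgeR, all 8 libraries in the fit) of dKO against control for each endothelial gene in Thy1 and in cKit; filled points have an adjusted p under 0.05. Each estimate is above 0, and 2 pass in Thy1 and 6 in cKit.

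The Thy1 calls rest on each of the 4 Thy1 libraries, and neither Cdh5 nor Ptprb kept its call without any 1 of them. Such a fit leaves 1 library in a group, and most calls over all genes were lost as well. Leaving out any 1 library gave Thy1 log2 changes of 0.48 to 0.53 for Cdh5 and 0.88 to 1.16 for Ptprb. With the 4 Thy1 libraries fitted alone, 6 genes passed (Cdh5, Eng, Flt1, Kdr, Pecam1 and Ptprb). Calls over all genes grew as well, with 432 of 14374 called higher against 54 of 14907 in the fit of all 8 libraries. In cKit the calls depend on dKO replicate 2, the higher library for 7 of the 10 genes (49.9% of all genes tested), with a median gap between replicates of 1.52-fold. Without it Cdh5, Pecam1 and Eng passed, and Kdr, Tie1 and Ptprb fell to log2 changes of 0.92, 1.38 and 0.53. Without cKit dKO replicate 1, 9 genes passed, all but Flt1. Without cKit control replicate 1, 5 passed, Ptprb being lost with an edgeR adjusted p of 0.0756.

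Between the control populations, endothelial genes were mostly lower in cKit than in Thy1. Cdh5, Tek and Eng fell, by 0.63 ± 0.10, 1.32 ± 0.30 and 1.13 ± 0.19 on the log2 scale (edgeR adjusted p = 0.000304, 0.00573 and 0.000426). These were 3 of the 10 genes, and 10.3% of all genes tested were called lower. Both cKit libraries lay below both Thy1 libraries for 7 genes (29.8% of all genes), the same 3 and Kdr, Tie1, Emcn and Esam. Those 4 had log2 differences of -0.93 ± 0.34, -1.09 ± 0.53, -1.10 ± 0.57 and -0.95 ± 0.42 and did not pass. Ptprb ran the other way, with both cKit libraries above both Thy1 libraries (0.52 ± 0.20, edgeR adjusted p = 0.0894; 29.9% of all genes lay above), and Pecam1 and Flt1 overlapped. The median was -0.94, beside 0.01 over all genes. When libraries were scaled on germ cell genes instead, none of the 3 passed and Ptprb was called higher in cKit. Over all 14907 genes tested, 2390 were called higher with that scaling and 662 lower. This comparison uses the same control libraries as the dKO comparisons.

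Between the dKO populations, Tek and Eng remained lower in cKit, by -1.30 ± 0.30 and -0.80 ± 0.18 on the log2 scale (edgeR adjusted p = 0.00356 and 0.00286), 2 of 10 genes where 20.0% of all genes were called lower. For Cdh5 the populations lay close together in dKO, at 377 and 384 against 349 and 342 CPM, a log2 difference of -0.14 ± 0.10 (edgeR adjusted p = 0.298). Both cKit libraries lay below both Thy1 libraries for 4 genes (38.2% of all genes). The other 7 members, Cdh5 aside, had differences from -0.71 to 0.38 that did not pass the test. The median was -0.20, beside -0.08 over all genes. Under germ cell scaling the direction turned, and 9 genes were called higher in cKit.

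Whether the dKO effect itself differed between the populations was tested as an interaction. None of the 10 genes passed by edgeR, against 5.92% of all genes called in either direction. At an unadjusted p under 0.05 there were 3088 of all 14907 genes tested, and 1 of the 10 members, Cdh5. Its cKit change was larger than its Thy1 change by 0.49 ± 0.14 (edgeR adjusted p = 0.054). DESeq2 called 1 of the 10 genes, Cdh5, and 991 of all 14907 genes. Tie1 had the largest estimate, 1.47 ± 0.71, with an edgeR adjusted p of 0.255. The broader set of calls in cKit in the fit of all 8 libraries is therefore not shown to reflect a different effect on these genes.

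Other genes of endothelium were read from lists of transcription factors, ligands, receptors, junction genes, vessel wall genes and arterial, venous or lymphatic genes, 101 genes of which 95 were tested. In Thy1 dKO 2 rose and 2 fell, where 0.262% of all genes were called lower. In cKit dKO 36 rose and 5 fell, where 15.4% of all genes were called lower, and 54 did not pass the test. Medians of the log2 fold change were 0.22 and 0.49, lower than those of the 10 genes. The 101 genes include many that are not restricted to endothelium.

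In Thy1 dKO, Cd93, a receptor of endothelial and myeloid cells, rose by 0.76 ± 0.13 and Vcam1, a leukocyte adhesion molecule, rose by 0.82 ± 0.13. F11r, a junctional adhesion molecule, fell by 0.97 ± 0.19 and Arhgef15 fell by 1.74 ± 0.32. None of the 19 transcription factors, 7 ligands or 12 arterial, venous and lymphatic genes tested passed by edgeR. At an unadjusted p under 0.05 there were 4, 0 and 4 of them, and DESeq2 called 0, 0 and 1 (Flt4, the lymphatic VEGF receptor). Of all 14907 genes tested, 2059 had an unadjusted edgeR p under 0.05 in Thy1 dKO, and DESeq2 called 307. Shown for their abundance, Klf4, Vegfa and Nr2f2 had log2 changes of 0.04, 0.04 and 0.16.

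Of 19 transcription factors tested, 6 rose and 2 fell in cKit dKO, where 13.2% of all genes were called higher and 15.4% lower. Fli1 and Elk3, both ETS factors, rose by 1.20 ± 0.29 and 1.12 ± 0.18, and Erg, the ETS factor typical of endothelium, fell by 1.24 ± 0.29. Erg measured 26.8 and 23.6 CPM in cKit control and 7.04 and 14.3 in cKit dKO, opposite to the endothelial genes. Hey1, a Notch target of arterial endothelium, fell by 1.36 ± 0.24.

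Among the 7 ligands tested, 4 rose in cKit dKO and none fell. Angpt1, the angiopoietin that activates TIE2, rose by 1.48 ± 0.37, Figf (VEGF-D) by 0.66 ± 0.17, Vegfa by 0.57 ± 0.20 and Vegfb by 0.51 ± 0.18. Of 19 receptors, 8 rose and 1 fell. Gpr116, an adhesion receptor, rose by 1.44 ± 0.30, Robo4, an endothelial guidance receptor, by 1.40 ± 0.38, and Nrp1, a VEGF co-receptor, by 0.90 ± 0.12. Unc5b, a netrin receptor, fell by 0.93 ± 0.23.

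Of 20 junction and adhesion genes, 6 rose and 2 fell in cKit dKO, Vcam1 by 1.06 ± 0.13, Cd34 by 1.01 ± 0.15 and Jup (plakoglobin) by 0.78 ± 0.19 upward, and Podxl (podocalyxin) by -0.85 ± 0.17. Of 23 function and vessel wall genes, 10 rose and none fell. Aqp1, a water channel, rose by 1.65 ± 0.34, Apold1 by 1.44 ± 0.42 and Sparcl1 by 1.11 ± 0.15. Tm4sf1 rose from a mean of 1.26 to 3.48 CPM. Of 12 arterial, venous and lymphatic genes, 2 rose and 1 fell. Nr2f2, the venous factor COUP-TFII, rose by 1.07 ± 0.12, Pdpn, a lymphatic marker, rose by 0.60 ± 0.16, and Hey1 fell. Beside these lists, 13.2% of all genes tested were called higher in cKit dKO and 15.4% lower. Nr2f2 and Pdpn are also expressed outside vessels, and Nr2f2 stands in the stromal list used here as well.

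**Figure D4:**
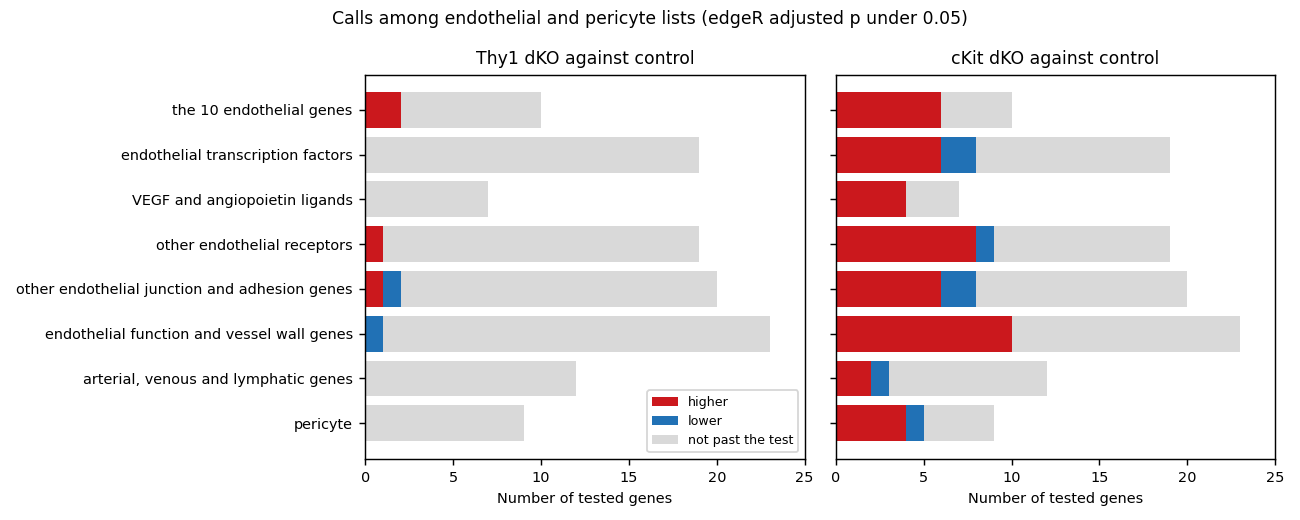
Number of tested genes called higher, lower or not past the test (edgeR adjusted p under 0.05) in each endothelial list and the pericyte list, for Thy1 dKO and cKit dKO against control. Few bars are coloured in Thy1, and in cKit the higher calls outnumber the lower in each list shown.

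Markers of other testis cells moved in the same libraries. The 27 germ cell genes summed to 3858 and 4264 CPM in Thy1 control and 3371 and 2973 in Thy1 dKO, and to 3360 and 2718 in cKit control and 801 and 1140 in cKit dKO. In cKit dKO 22 of the 27 fell and none rose. Ddx4, a germ cell RNA helicase, was at 147 and 108 CPM in cKit control and 34.3 and 38.7 in cKit dKO. Without Cdh5, the 9 other endothelial genes summed to 119 and 116, then 200 and 202 CPM in Thy1, and to 78.5 and 91.5, then 142 and 191 CPM in cKit.

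Sertoli genes went from 1450 and 1540 to 2154 and 2168 CPM in cKit (8 of 17 rose), Leydig genes from 11690 and 14126 to 16222 and 19056 (7 of 12 rose, 1 fell), and peritubular and stromal genes from 3406 and 3360 to 6858 and 5460 (10 of 16 rose). Genes of pericytes, the cells that wrap capillaries, went from 164 and 144 to 242 and 250 CPM. Of 9 tested, 4 rose and 1 fell, with Cspg4 (1.20 ± 0.14), Notch3 (1.05 ± 0.18) and Pdgfrb (0.78 ± 0.26) rising and Anpep falling by 0.98 ± 0.21. Macrophages also express Pecam1. Their genes overlapped between the cKit groups at 221 and 493, then 188 and 655 CPM, and went from 1119 and 1285 to 1587 and 1745 CPM in Thy1. In each population 0 of 16 macrophage genes passed by edgeR and 0 by DESeq2, with 1 at an unadjusted p under 0.05. Of all 14907 genes tested, 2059 had an unadjusted edgeR p under 0.05 in Thy1 dKO and 5952 in cKit dKO. Mast cell genes, which a Kit sort can enrich, went from 130 and 215 to 312 and 259 CPM in cKit. Of 9 tested, 2 rose, where 13.2% of all genes tested were called higher. Platelet and megakaryocyte genes summed to 126 to 156 CPM in Thy1 and 49.2 to 56.9 in cKit.

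In Thy1 dKO the Sertoli sum went from 804 and 788 to 999 and 1062 CPM (2 of 17 rose, Gata4 and Nr5a1). The Leydig sum went from 2889 and 3567 to 4134 and 4609 CPM (3 of 12 rose). Nr5a1 stands in both lists and is counted among the rises of each, here and in cKit. The stromal sum overlapped, at 15596 and 12049, then 13484 and 13990 CPM, and 0 of 16 passed by edgeR (8 at an unadjusted p under 0.05, 2 by DESeq2). The pericyte sum went from 574 and 528 to 591 and 690 CPM, and 0 of 9 passed by edgeR (1 at an unadjusted p under 0.05, 0 by DESeq2). For both lists, the unadjusted counts stand beside 2059 of all 14907 genes tested in Thy1 dKO. The summed CPM of the 9 endothelial genes in dKO was 1.71-fold that of control in Thy1 and 1.95-fold in cKit (ratios of group means, not tested), beside 1.29-fold and 1.45-fold for Sertoli and 1.35-fold and 1.37-fold for Leydig genes. In the same order, the ratio was 0.994 and 1.82 for stromal, 1.16 and 1.59 for pericyte, 1.39 and 1.18 for macrophage and 0.824 and 1.65 for mast cell genes. Abundant genes weigh most in these sums. Of the mean Leydig sum, Hsd3b1 alone held 7702 of 12908 CPM in cKit control and 11443 of 17639 in cKit dKO. In Thy1 it held 1774 of 3228 CPM in control and 2661 of 4372 in dKO. Libraries were also scaled on the summed counts of the Sertoli, Leydig and stromal genes, in which abundant genes weigh most. Cdh5, Kdr and Tie1 then still passed in cKit dKO (log2 changes of 0.46, 0.93 and 1.69), and none of the 10 passed in Thy1 dKO. Of all 14907 genes tested, 237 were called higher in cKit dKO with that scaling and 12 in Thy1 dKO. The part of the other cell types in the endothelial differences was not tested beyond this.

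**Figure D5:**
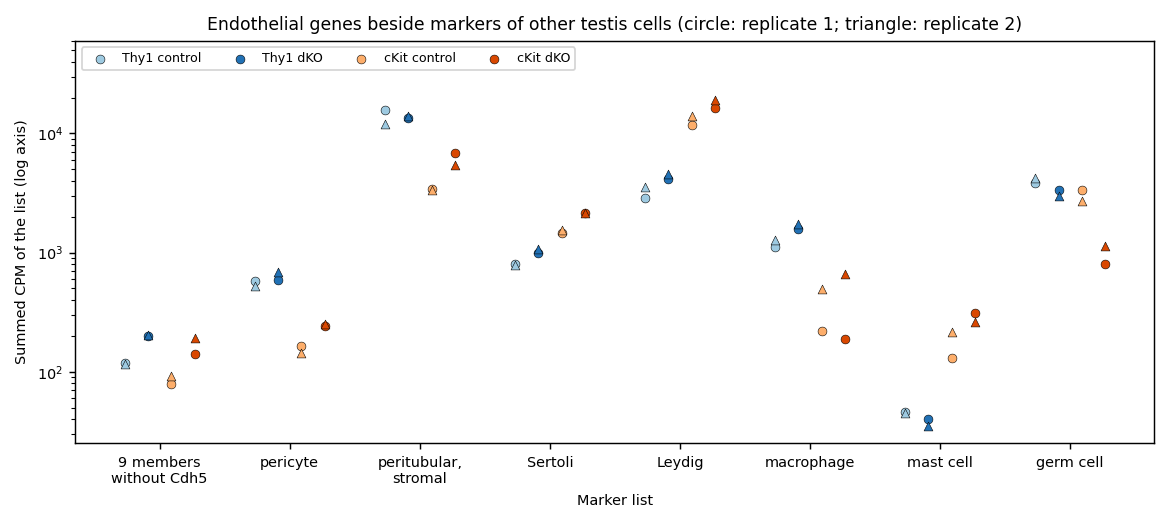
Summed CPM (log axis) of the 9 endothelial genes without Cdh5 and of marker lists of other testis cells in each library, coloured by group. In cKit the endothelial, pericyte, stromal, Sertoli and Leydig sums are higher in dKO and the germ cell sum is lower, from 3360 and 2718 to 801 and 1140 CPM.

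The sort markers differed as the labels have it. Thy1 was at 12.8 to 26.0 CPM in Thy1 libraries and 0 to 1.28 in cKit libraries, and Kit at 281 to 317 and 938 to 1059 CPM, summed over its entries, which may hold reads more than once.

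Genes that followed the same course over the 8 libraries were sought among 10229 genes with a mean log2 CPM of at least 3, by the root mean square difference between a gene's centred log2 CPM and that of the members' mean. Prrg1 was nearest at 0.08, followed by Cmtm3 at 0.13, Hdac7 at 0.14, Chst14, Ubash3b and Fam101b at 0.16, and Nfam1 and Etv5 at 0.17. Prrg1 had log2 changes of 0.62 in Thy1 dKO and 1.01 in cKit dKO. None of the 8 is in a marker list used here. The members themselves lay 0.17 (Cdh5) to 0.48 (Ptprb) from their own mean. Libraries are the only points behind this measure, and they share population and genotype.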

How the data were processed

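RNA of sorted mouse spermatogonia was measured in 8 libraries, 2 in each of 4 groups taken from the sample titles. Per the labels' protocols, RNA was amplified with the NuGEN Ovation system and made into Nextera XT libraries, with no molecular identifiers named. Per the submitters' processing notes, STAR 2.4.2a and mm10 were used. How reads were counted, with which strand setting and filters, is not given in the sources used here, so overlapping genes cannot be told apart by strand. The deposited counts are whole read counts per RefSeq entry, 26099 in each table, not normalized, per the file headers and the values. The deposited RPKM values, scaled for transcript length and sequencing depth, were computed by the authors, per the file headers.

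Counts were summed per gene symbol (each of the 10 genes has 1 entry) and tested with edgeR 4.0.16 in R 4.3.3. The fit used filterByExpr by group (14907 genes kept, all 10 members among them), TMM scaling, 1 mean per group over all 8 libraries, a two-sided glmQLFTest after glmQLFit, and Benjamini-Hochberg adjustment at 0.05 over all genes tested. The standard error of a change is its absolute log2 size divided by the root of F. All groups share 1 estimate of the spread per gene, although replicates spread more in cKit. That estimate has 4 residual degrees of freedom and is moderated across genes, with 11.0 prior degrees of freedom. The common dispersion, a summary over all genes tested, was 0.0222. Scripts were tested on simulated data.

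Members and lists were chosen with earlier results of these data known. Named genes were the 10 members, Ring1, Rnf2, Thy1, Kit, Ddx4 and Dazl, up to 4 genes of each endothelial or pericyte list with the largest change past the test in the dKO comparisons (where none passed, the most abundant), and the 8 genes nearest the members' profile. Outside this rule, some genes were named after their values were seen. These were Fpgs (overlap with Eng), Flt4 (a call by DESeq2), Gata4, Nr5a1 and Hsd3b1 (Sertoli or Leydig lists) and the further endothelial genes whose levels follow the RPKM values. Exonic overlaps came from GENCODE M21 and promoter sequences from RefSeq (GRCm38.p6).

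Alternatives were library totals, RLE, germ cell or somatic gene scaling, DESeq2 1.42.0, limma 3.58.1 on log2(RPKM + 1) or log2(RPKM + 0.1), no filter or a stricter one (50 counts in 2 libraries), the 4 libraries compared alone, 1 entry per symbol, a replicate block, and each library left out.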

Additional observations from a re-analysis of the deposited data

Results flagged for a closer look

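For 10 of the genes named from the lists, the dKO effect differed between the populations by edgeR's interaction test (adjusted p under 0.05). Values are the cKit log2 change minus the Thy1 log2 change. Among endothelial receptors it was 0.58 for Nrp1 and -1.48 for Unc5b. Among junction genes it was 1.17 for F11r, 1.23 for Cd34 and -1.06 for Podxl. Sparcl1 of the vessel wall list differed by 0.75, Nr2f2 of the venous genes by 0.91 and Cspg4 of the pericyte genes by 0.84. The germ cell genes Ddx4 and Dazl differed by -1.50 and -1.33. None of the 10 endothelial members differed in this test.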

How the results depend on the processing

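In Thy1 dKO, 2 members were called. Germ cell scaling also gave 2, Ptprb and Flt1 in place of Cdh5 and Ptprb. The count became 0 with somatic gene scaling, with limma on log2(RPKM + 1) or log2(RPKM + 0.1) and with 1 entry per symbol. It was 4 with no filter and 6 with the 4 Thy1 libraries alone. Over all genes, 54 of 14907 were called higher in Thy1 dKO as reported. That became 12 with somatic gene scaling, 10 and 2 with limma on log2(RPKM + 1) and log2(RPKM + 0.1), and 5 with 1 entry per symbol. With no filter it was 326 of 19719, and with the 4 Thy1 libraries alone 432 of 14374. Leaving out 1 library gave members' median log2 changes from 0.60 to 0.86. In cKit dKO, 6 were called, against 10 with germ cell scaling, 3 with somatic scaling, 1 and 3 with limma on RPKM at pseudocounts of 1 and 0.1, and 3 to 9 with 1 library left out. For control cKit against Thy1, 3 were called lower, against 1 (higher, so the direction turned) with germ cell scaling and 5 with no filter (1 higher, 4 lower). The members' median there ran from -0.94 to -0.83 with 1 library left out. For dKO cKit against Thy1, 2 were called lower, against 9 (higher) with germ cell scaling and 4 (lower) with somatic scaling. With 1 library left out, the members' median ran from -0.51 to 0.14. For the difference of the dKO effects, 0 were called, against 1 with RLE, 9 with germ cell scaling, 1 with DESeq2, 1 with the stricter filter (8 members tested, Emcn and Esam left out) and 0 to 2 with 1 library left out. With germ cell scaling, 11800 of all 14907 genes were called higher in dKO cKit against Thy1, and 8702 in the difference of the effects. The cause of these moves was not tested. The 4-library fit gave 6 in cKit dKO, and it does not apply to the difference of the effects.

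Germ cell scaling moved the median log2 fold change of all genes to 0.39 in Thy1 dKO and 1.70 in cKit dKO, with members' medians of 1.07 and 2.70. Somatic scaling moved it to -0.07 and -0.52, with members' medians of 0.59 and 0.47. In both dKO comparisons each member stayed positive under every scaling. Over all genes in cKit dKO, 1965 were higher and 2294 lower, against 1278 and 3007 with library totals, 12369 and 53 with germ cell scaling, 237 and 5660 with somatic scaling, and 459 and 3990 with limma on log2(RPKM + 1).

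Between the populations germ cell scaling turned the sign of many members. Of all genes tested, 93.3% were positive with it in dKO cKit against Thy1 (45.2% as reported) and 77.4% in control (50.9%). In dKO, 2 of 10 members were positive in cKit against Thy1 and 10 with that scaling (0.38 for Tek, 0.97 for Eng and 1.61 for Cdh5), and in control 1 and 3 were. Named list genes called lower in cKit dKO also turned, to 0.70 for Anpep, 0.37 for Erg, 0.28 for Hey1, 0.79 for Podxl and 0.67 for Unc5b. With somatic scaling, Vegfb was -0.045 in cKit dKO, and Klf4 and Vegfa were -0.0606 and -0.085 in Thy1 dKO. Vegfa was -0.023 there with 1 entry per symbol. With 1 library left out, Thy1 dKO changes ran from -0.20 to 1.04 for Emcn, from -0.10 to 0.17 for Klf4 and from -0.18 to 0.24 for Vegfa.

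Replicate numbers did not pair the libraries, with correlations of same-numbered deviations from -0.05 to 0.05 between groups. With the replicate number as a block, the counts of members called were 2, 6, 3, 2 and 0, in the order above.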
